A study of Mus musculus with 6 samples.

Results

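The plasma proteins made by the liver were followed through 34 hepatocyte genes in RNA of the embryonic rib cage. The genes were taken from a given list of hepatocyte genes and matched by symbol to the gene table, and all 34 were found among its 55487 gene IDs. They code for 8 carrier proteins, 5 apolipoproteins, 7 proteins of clotting and clot breakdown, and 6 protease inhibitors or inhibitor chains. The others code for 2 fetuins, the matrix protein vitronectin, the hormone precursor angiotensinogen, and 4 regulators or enzymes of the hepatocyte. Of the 34 genes, 33 had at least 10 counts summed over the libraries and were tested. The remaining gene, Tat (tyrosine aminotransferase), held 0, 0 and 1 counts in the controls and 2, 2 and 4 in the mutants, and no fold change is given for it.

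RNA-Seq was performed on rib cages of 6 mouse embryos at 16.5 dpc, with 3 controls labelled wild type (E420, E434 and E435) and 3 mutants of the genotype Col2-cre;Foxc1-/-;Foxc2-/- (E423, E433 and E440). In the mutants, floxed alleles of the forkhead factors Foxc1 and Foxc2 were deleted by a cre recombinase under the Col2 promoter, which is active in chondrocytes, perichondrium and the primary ossification centre. Mice were on a mixed background, and littermates were compared, although which embryos shared a litter was not stated. Rib cages were dissected clean of connective tissue before RNA was isolated, and polyadenylated RNA was sequenced without sorting of cells, so that fewer cells of a type and less RNA per cell cannot be told apart.

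Hepatocytes secrete most of the proteins of plasma, and in the fetus they begin with alpha-fetoprotein, albumin, transferrin and the apolipoproteins. Their genes are switched on together by a small set of liver-enriched transcription factors, among them HNF4A. The fetal liver is also the main site of red cell formation at this age, and it lies just below the diaphragm.

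Library totals ran from 37853988 to 47794799 counts, so that 1 count equalled 0.0206 to 0.0254 CPM (the unit used here, counts scaled to library size by TMM). Foxc1 lay at 23.1 to 36.9 CPM in the controls and at 3.51 to 9.60 CPM in the mutants, with no overlap of the groups. E433 was the only female by its Xist and Y-linked Ddx3y levels. Controls E420 and E435 were close to each other, as were mutants E423 and E440 (SD of the log2 ratio over genes 0.153 and 0.132, against 0.471 to 1.37 for the other pairs). Their counts were not equal within counting noise (chi-square per gene 5.42 and 2.27 on the expected counts, where counting noise alone gives 1), which does not show whether the libraries of a pair are related, and the sources used here do not say. They were kept as separate samples because they are labelled as separate embryos, and p-values measure the spread between them.

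The plasma protein genes were high in 1 mutant library. In E433, 29 of the 34 genes (85.3%) were at their highest of all 6 libraries, and each of these had at least 50 counts there. Over all genes tested, E433 was the highest library for 17.6%. The level in E433 was a median of 9.41 times that of the next highest library over the 29 genes, from 1.52 times for F2 (prothrombin) to 21.6 times for Serpina6 (corticosteroid-binding globulin). Of the 46 genes in the genome with at least 50 counts in E433 and at least 5 times the level of every other library, 25 (54.3%) were among the 34. Such genes were 0.284% of the 16211 with that many counts. Both limits were read on E433 itself, so this share is a description and not a test. Most of the 25 had under 50 counts in every other library, such as Plg (277 counts in E433 and 19 or fewer elsewhere) and Hpx (164, and 17 or fewer elsewhere). Summed over the 34 genes, the level was 100.1, 128 and 103 CPM in E420, E434 and E435 (controls) and 125, 963 and 128 CPM in E423, E433 and E440 (mutants). Values below keep this order of libraries.

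**Figure D1:**
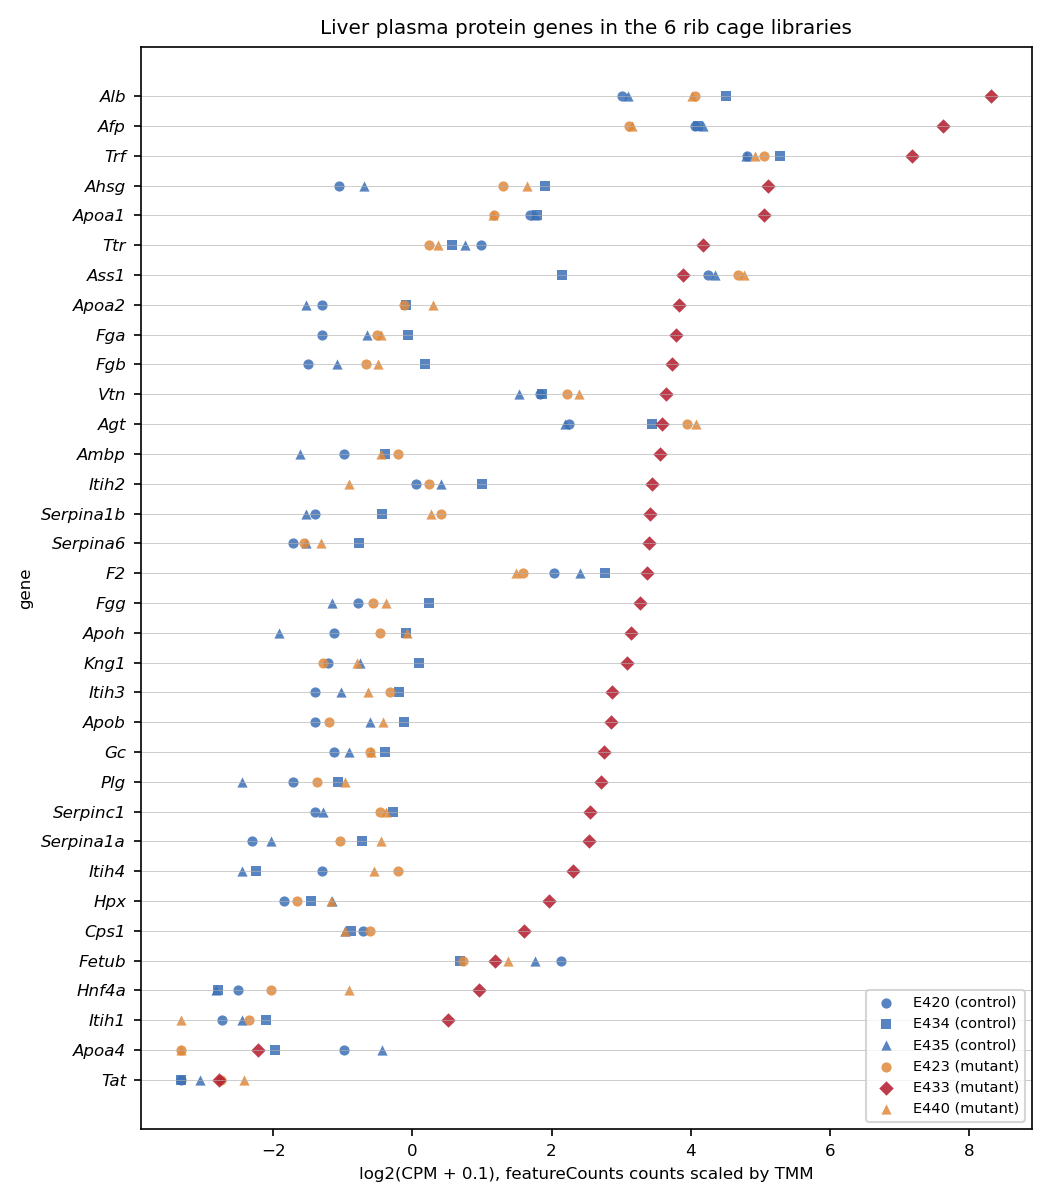
The level of each of the 34 genes as log2(CPM + 0.1) on the horizontal axis, with 1 point per library and genes ordered by their level in mutant E433. Mutant E433 (red diamonds) stands to the right of the other 5 libraries for 29 genes, while the other mutants (orange) lie near the controls (blue) for most genes.

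Promoter sequences were at hand for 28 of the 34 genes, and the letters TATAAA or their reverse complement TTTATA, the core of the TATA box that places the start of transcription, were searched on both strands of the 50 bases before the RefSeq start. They were found for 3 of the 28 (10.7%), Afp, Agt and Fetub, against 4.17% of 27025 genes. The first base of the match lay 30 bases before the start for Agt and 31 for Fetub, but only 7 for Afp. For Afp the window ended at 90490713, upstream of the gene start used for the counts (90490737). The match therefore lay further than 7 bases from that gene start, and the short distance holds only for the RefSeq start. Afp was highest in E433 and the other two were not, and 1 of the 23 genes highest in E433 with a sequence held the letters. The motif was chosen with the levels known, and a match is a run of letters and not a shown binding site. The 3 sequences are printed because their genes differ in where they were high, as described in the next paragraphs. Each is the 150 bases before the start on GRCm38.p6 (RefSeq), 5′ to 3′ on the strand of the gene, with the match in capitals. The windows are chr5:90490564-90490713 on the plus strand for Afp, chr8:124569707-124569856 on the minus strand for Agt and chr16:22918232-22918381 on the plus strand for Fetub.
Afp: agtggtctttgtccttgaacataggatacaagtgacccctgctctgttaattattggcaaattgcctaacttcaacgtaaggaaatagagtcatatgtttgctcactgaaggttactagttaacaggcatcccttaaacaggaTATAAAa
Agt: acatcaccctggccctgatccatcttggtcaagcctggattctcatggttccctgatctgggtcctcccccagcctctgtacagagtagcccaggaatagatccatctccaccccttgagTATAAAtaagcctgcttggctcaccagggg
Fetub: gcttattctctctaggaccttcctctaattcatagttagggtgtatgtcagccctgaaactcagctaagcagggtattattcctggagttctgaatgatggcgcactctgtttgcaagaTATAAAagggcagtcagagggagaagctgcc

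The carriers gave the highest levels. Alb (albumin, chr5:90460897-90476602), the main carrier and osmotic protein of plasma, was at 7.94, 22.5 and 8.43 CPM in the controls and at 16.5, 319.8 and 16.2 CPM in the mutants. Mutants E423 and E440 lay between the controls, and E433 held 13785 counts against 1021 or fewer elsewhere. The log2 fold change of the groups was 3.18 (SE 1.29), with an adjusted p-value of 0.465 by edgeR's quasi-likelihood test with Benjamini-Hochberg adjustment.

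Afp (alpha-fetoprotein, chr5:90490737-90508907), the fetal relative of albumin, was at 16.5, 17.2 and 17.95 CPM in the controls and at 8.51, 196 and 8.78 CPM in the mutants. The controls were thus almost level, with E433 far above them and the other mutants at about 0.5 of them (log2 fold change without E433 of -0.99). With all libraries the log2 fold change was 2.05 (SE 1.21, edgeR adjusted p = 0.586). Ttr (transthyretin), which carries thyroxine and retinol-binding protein, had the same form, with 1.88, 1.39 and 1.59 CPM in the controls and at 1.08, 18 and 1.19 CPM in the mutants.

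Trf (transferrin), the iron carrier, was at 27.9, 38.7 and 27.8 CPM in the controls and at 33.02, 144 and 30.2 CPM in the mutants. In E433 it stood 3.73 times above the next library, one of the smaller factors among the genes highest there. The other carriers were near the floor outside E433. Gc (vitamin D-binding protein), Hpx (hemopexin), Ambp (precursor of alpha-1-microglobulin and bikunin) and Serpina6 did not pass 0.77 CPM in the 5 other libraries, and reached 6.63, 3.80, 11.7 and 10.5 CPM in E433.

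Among the apolipoproteins, the protein parts of plasma lipid particles, 4 of 5 were highest in E433. Apoa1, the main protein of high-density lipoprotein, was at 3.13, 3.38 and 3.28 CPM in the controls and at 2.16, 33.03 and 2.12 CPM in the mutants. Its levels in E423 and E440 lay below every control, as for Afp and Ttr. Apoa2, its partner in high-density lipoprotein, was at 0.31, 0.84 and 0.25 CPM in the controls and at 0.82, 14.1 and 1.13 CPM in the mutants. Apob, the scaffold of low-density lipoprotein, and Apoh (beta-2-glycoprotein I) stayed at or under 0.845 CPM outside E433 and reached 7.12 and 8.70 CPM in it.

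Apoa4, an apolipoprotein of intestine and liver, went the other way. Its counts were 16, 7 and 31 in the controls and 0, 5 and 0 in the mutants, so that the groups did not overlap (log2 fold change -3.29, SE 1.11, edgeR adjusted p = 0.419). Against a floor of 3 counts in each of E423 and E440, the mean control level was at least 5.84-fold higher than in these 2 mutants. Exons of Apoa4 overlap those of Gm47528 and Gm10680, and strand was not used in counting, so reads of these genes cannot be told apart.

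The genes of clotting and clot breakdown were highest in E433 in 7 of 7 cases. The fibrinogen genes Fga, Fgb and Fgg, whose products join to form the clot fibre, lie together on chromosome 3 from 83007724 to 83049863. Fga was at 0.31, 0.86 and 0.54 CPM in the controls and at 0.60, 13.7 and 0.63 CPM in the mutants. Fgb was at 0.25, 1.04 and 0.37 CPM and at 0.53, 13.2 and 0.61 CPM, and Fgg reached 9.53 CPM in E433 against 1.08 CPM or less. Plg (plasminogen, which dissolves clots), Kng1 (kininogen) and Serpinc1 (antithrombin) were at 6.43, 8.42 and 5.75 CPM in E433 and under 1 CPM in every other library.

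F2 was the exception among clotting genes. It was at 3.995, 6.71 and 5.19 CPM in the controls and at 2.91, 10.2 and 2.71 CPM in the mutants, so that a signal was present in all libraries, lower in E423 and E440 than in any control and highest in E433. The log2 fold change of the groups was -0.01 (SE 0.54), and its sign turned under other settings.

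Of the 6 protease inhibitors or inhibitor chains, all were highest in E433. Serpina1b, a form of alpha-1-antitrypsin, was at 0.28, 0.64 and 0.25 CPM in the controls and at 1.23, 10.6 and 1.11 CPM in the mutants. Every mutant stood above every control (log2 fold change 3.46, SE 1.05, edgeR adjusted p = 0.392). Its near-identical neighbour Serpina1a reached 5.68 CPM in E433, with the other libraries at 0.10 to 0.63 CPM, and the split of reads between these copies is uncertain. Both stood out by a like factor in the expected counts, in which shared reads are divided (10.5 times for Serpina1a and 8.35 times for Serpina1b, against 9.04 and 8.64 times in the counts).

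The inter-alpha-trypsin inhibitor heavy chains, several of which bind hyaluronan in the extracellular matrix, differed in their control levels. Itih4 held 12, 5 and 4 counts in the controls and 32, 210 and 27 in the mutants, again with no overlap (log2 fold change 3.66, SE 1.03, edgeR adjusted p = 0.381). Itih2 was at 0.94, 1.90 and 1.24 CPM in the controls and at 1.08, 10.7 and 0.43 CPM in the mutants. Itih3 reached 7.21 CPM in E433 against at most 0.77 CPM elsewhere, and Itih1 held 57 counts in E433 and 6 or fewer elsewhere. Itih1, Itih3 and Itih4 are neighbours on chromosome 14.

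The fetuins, which are inhibitors of mineral deposition and of proteases, did not move together. Ahsg (fetuin-A), a liver protein that accumulates in bone, was at 0.38, 3.66 and 0.52 CPM in the controls and at 2.36, 34.5 and 3.03 CPM in the mutants. Control E434 was above both of the other mutants. Fetub (fetuin-B) was at 4.30, 1.5 and 3.28 CPM in the controls and at 1.56, 2.18 and 2.49 CPM in the mutants, with no sign of E433. Vtn (vitronectin), an adhesion protein of plasma and matrix, was at 3.46, 3.55 and 2.80 CPM in the controls and at 4.55, 12.4 and 5.16 CPM in the mutants, with every mutant above every control.

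Regulators and enzymes were less uniform. Hnf4a, the nuclear receptor that holds the hepatocyte programme, gave 3, 2 and 2 counts in the controls and 6, 79 and 20 in the mutants. Summed counts per library size were 15.3 times higher in mutants (95% exact interval 7.15 to 38.9, counting error only), and 5.64 times (2.38 to 15.4) without E433. Cps1, the first enzyme of the urea cycle, was at 0.41 to 0.55 CPM in 5 libraries and at 2.95 CPM in E433. Ass1, a later urea cycle enzyme that makes arginine precursors in many tissues, was at 18.96, 4.32 and 20.2 CPM in the controls and at 25.5, 14.7 and 26.98 CPM in the mutants. Its level in E433 was thus inside the control range.

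Agt (angiotensinogen), the precursor of the angiotensins, was at 4.66, 10.7 and 4.45 CPM in the controls and at 15.3, 11.97 and 16.7 CPM in the mutants. Every mutant was above every control, and E433 was the lowest of the mutants. Its log2 fold change of 1.15 (SE 0.37, edgeR adjusted p = 0.407) was 1.28 without E433.

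As a group, no gene of the 34 passed both limits (adjusted p-value 0.1, log2 fold change 1 in either direction) by edgeR's quasi-likelihood test. Over all 26596 genes tested, 0.0338% passed as higher and 0.0301% as lower. The adjusted p-values of the 33 genes ran from 0.376 to 0.998. Unadjusted p-values were under 0.05 for 13 of 33 (39.4%), against 10.6% of all genes. The median log2 fold change of the 33 was 2.41, against 0.01 for all genes, with 30 above 0 and 3 below. For single values an exact permutation test of 3 against 3 cannot go below 0.1.

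By DESeq2's Wald test, 7 of the genes were called higher (Hnf4a, Itih4, Serpina1a, Serpina1b, Serpinc1, Vtn and Agt) and 0 lower, against 1.33% and 0.459% of all genes tested. DESeq2 gave no p-value to 16 of the 33 genes (48.5%), since 1 library weighed too heavily on them by Cook's distance, and all 16 were highest in E433. Over all genes this befell 0.222%. With that limit off, 8 were called higher, Itih3 being added (adjusted p = 0.0922 by DESeq2), where 1.34% of all genes were. The smallest DESeq2 adjusted p-values were 0.00214 for Itih4 and 0.0101 for Hnf4a, and that of Agt was 0.0376. Serpinc1 (DESeq2 adjusted p = 0.0922) shares exon sequence with Zbtb37, and its level in E433 was 7.90 times the next library in the counts but 2.76 times in the expected counts.

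The groups did not overlap for some of the genes, as was so for 15% of all genes tested. Mutants were all above controls for 5 of the 33 genes tested (15.2%: Serpina1b, Itih4, Vtn, Hnf4a and Agt), against 6.81% of all genes, and all below for Apoa4 alone (3.03% against 8.21%). These 5 were also among the genes called by DESeq2, which used the same counts and so adds no separate evidence. The groups overlapped for 25 of the 29 genes that were highest in E433.

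Without E433, the difference between the groups was small. The median log2 fold change of the 33 genes was then 0.11, with 21 above 0 and 12 below. By edgeR, Itih4 (log2 fold change 2.05, adjusted p = 0.0951) and Serpina1b (1.58, adjusted p = 0.0995) passed both limits as higher and Apoa4 as lower (adjusted p = 0.0741), where 2.84% and 1.37% of all genes did. Genes under the adjusted p-value limit at any fold were 7.22% (higher) and 6.18% (lower) of all genes, and 2 and 4 of the 33. Afp fell (log2 fold change -0.99, SE 0.09, edgeR adjusted p = 0.00921) without reaching the limit of 1, as did Apoa1 (-0.60, adjusted p = 0.0630) and F2 (-0.91, adjusted p = 0.0927). DESeq2 without E433 called Agt, Itih4 and Serpina1b higher and Apoa4 lower, against 3.01% and 1.76% of all genes. Both remaining mutants were above all controls for 6 of the 33 (18.2%) and below them for 5 (15.2%; Afp, Ttr, Apoa1, Apoa4 and F2), against 23.7% and 23% of all genes. Neither share exceeded that of all genes. The remaining mutants are a close pair, so the spread within this group was small.

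**Figure D2:**
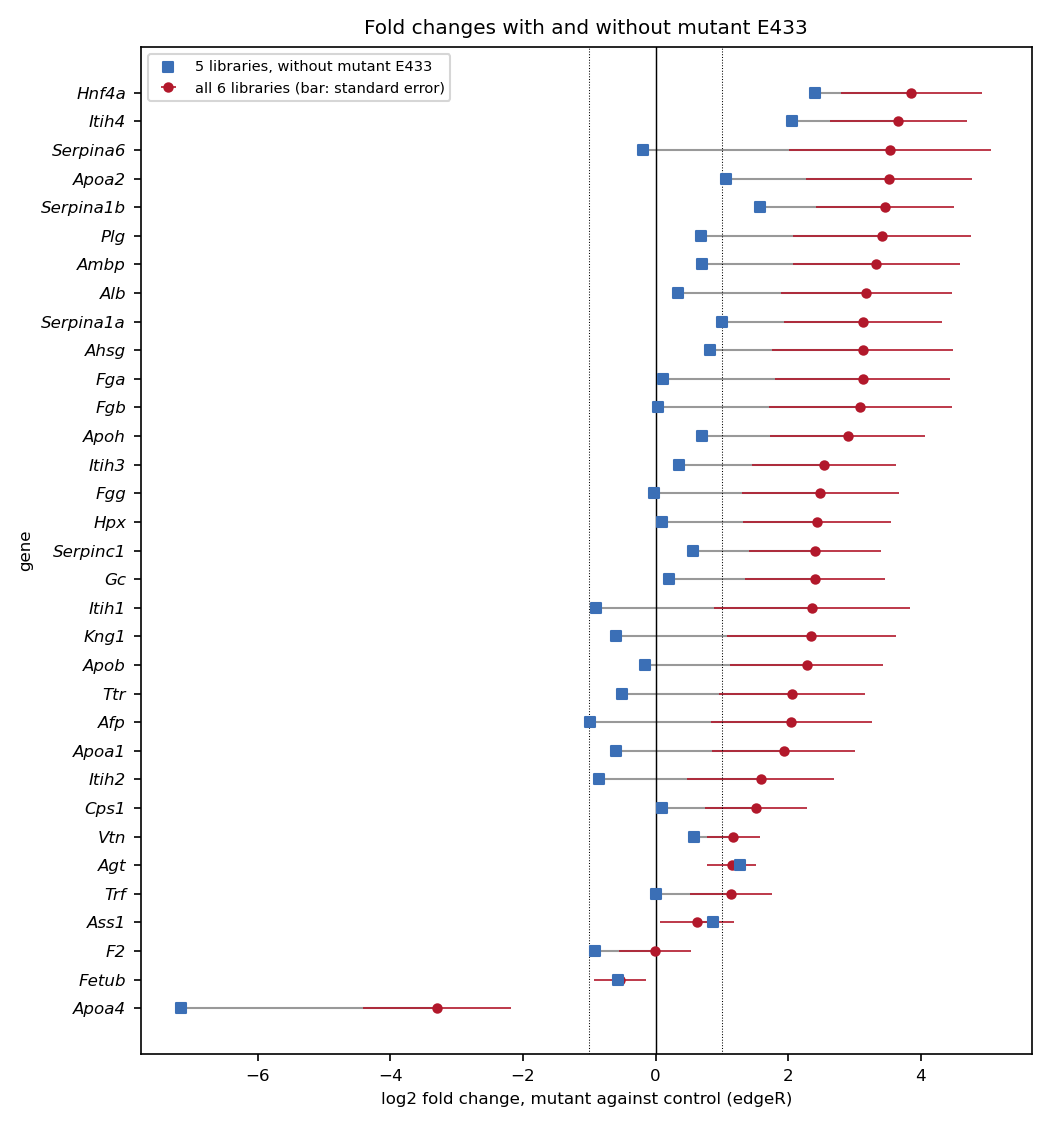
Log2 fold change of mutants against controls by edgeR for the 33 genes tested, with all 6 libraries (red points, bars showing the standard error) and without mutant E433 (blue squares). Dotted lines mark the limits of 1 either way, and the median moves from 2.41 to 0.11. The value of Apoa4 without E433 rests on 0 counts in both remaining mutants and has no fixed size.

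The order of the genes by level differed between E433 and the other libraries. On the TPM scale, which corrects for gene length, E433 was led by Alb (232 TPM), Afp (152), Trf (138), Apoa2 (62.3), Apoa1 (54.6) and Ahsg (38.8). In control E420, by contrast, Trf (23.3 TPM) and Ass1 (20.5) were followed by Afp (11.5), Alb (5.47) and Apoa1 (4.80). Alb and Afp together made up 43.6% of the summed TPM of the 34 genes in E433, against 18.8, 23.4 and 20.2% in the controls and 14.7 and 13.3% in E423 and E440.

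Some genes kept a steady ratio to albumin in all libraries and others did not. Fgb stood at 0.0165, 0.0229 and 0.0211 of the Alb TPM in the controls and at 0.0193, 0.0213 and 0.0211 in the mutants, although it rested on 10 to 47 counts outside E433. Fga ranged from 0.0293 to 0.0527 of Alb over the 6 libraries. Afp stood at 2.101, 0.792 and 2.18 times Alb in the controls and at 0.525, 0.654 and 0.542 times in the mutants. Apoa1 (0.878, 0.340 and 0.912 against 0.299, 0.235 and 0.291) and Ttr (0.422, 0.126 and 0.351 against 0.122, 0.103 and 0.141) gave the same picture, with E420 and E435 apart from the other 4 libraries. Trf was out of proportion in E433, at 0.595 times Alb there and 2.66 to 4.27 times elsewhere.

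**Figure D3:**
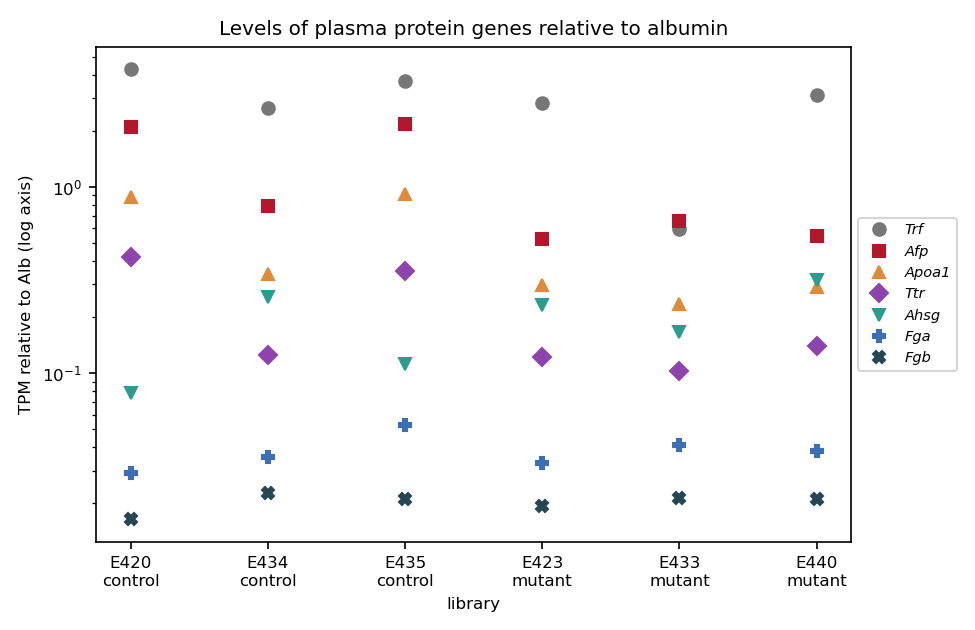
TPM of 7 genes relative to Alb in the same library, on a log axis, for the 3 controls and 3 mutants. Fgb stays between 0.0165 and 0.0229, Afp, Apoa1 and Ttr are highest in E420 and E435, and Trf is lowest in E433 (0.595).

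Among the controls, E434 also stood somewhat higher. Of the 29 genes that were highest in E433, E434 was above both other controls for 23, which was so for 37.8% of all genes. Relative to the control mean, the median log2 ratio over the tested genes was 0.57 in E434, -0.30 in E420 and -0.15 in E435, and 0.20, 3.56 and 0.29 in the mutants. Alb held 1021 counts in E434, against 312 and 409 in E420 and E435.

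A signal outside E433 was clear for 10 genes, which were above 1 CPM in every library: Alb, Afp, Ttr, Trf, Apoa1, Fetub, F2, Vtn, Ass1 and Agt. Several of these are known from other tissues, such as Trf from glia, Vtn from vessel walls, Agt from fat and Ass1 from many epithelia. Agt had its levels in the order E440, E423, E433, E434, E420 and E435. A list of 8 adipocyte genes summed to 629, 607, 210.3, 156, 138 and 140.4 CPM in these libraries. Ass1 had the order E440, E423, E435, E420, E433 and E434, and 8 keratinocyte genes summed to 27842, 27699, 6235, 5388, 3228 and 17.9 CPM in it. The part of adipocytes or keratinocytes in these genes was not tested.

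Other hepatocyte genes were read from 6 lists of 102 genes, of which 89 were tested. In E433, 52 of the 89 (58.4%) were at their highest, and 37 (41.6%) were at least 2 times the next library, against 1.52% of all genes tested. The filter of 10 summed counts included E433, so some of these genes were tested only through their counts there. Among them were Saa4 (31 counts in E433, 1 or 0 elsewhere), Mbl1 (10, and 2 or fewer elsewhere) and C8b (56, and 6 or fewer elsewhere). These shares are thus a description and not a test. The clotting list had 14 of 16 genes highest in E433, complement 9 of 15 and lipid genes 6 of 9. Enzymes had 13 of 23, carriers and acute phase proteins 5 of 12, and transcription factors 5 of 14. Genes at least 2 times the next library numbered 12, 7, 3, 11, 4 and 0 in the same order of lists. Serpinf2 (antiplasmin) was at 0.16 to 0.46 CPM in 5 libraries and at 8.26 CPM in E433. Likewise Cfi (complement factor I) was at 3.27 CPM in E433 against 0.40 CPM or less, Apom at 3.50 against 0.46 CPM or less, and Serpina1e at 5.22 against 0.65 CPM or less.

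These lists also held genes without that pattern. Apoc2 was at 0 counts in all 6, and Apoe, made by macrophages as well, was at 191 to 239 CPM. By edgeR, Lipc (hepatic lipase) was called lower, with a log2 fold change of -2.05 and an adjusted p-value of 0.0775. It was at 2.89 to 3.22 CPM in the controls and at 0.58, 0.84 and 0.80 CPM in the mutants, level within groups unlike the plasma protein genes. DESeq2 called 12 of the 89 higher (13.5%) and 2 lower (2.25%), against the 1.33% and 0.459% of all genes given above. Not all of the 12 were high in E433: Hal was at 74.1 and 77.6 CPM in E423 and E440 and at 1.07 CPM in E433, Pck1 at 4.62 and 4.81 against 0.28 CPM, and Mlxipl at 5.07 and 4.29 against 1.37 CPM.

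**Figure D4:**
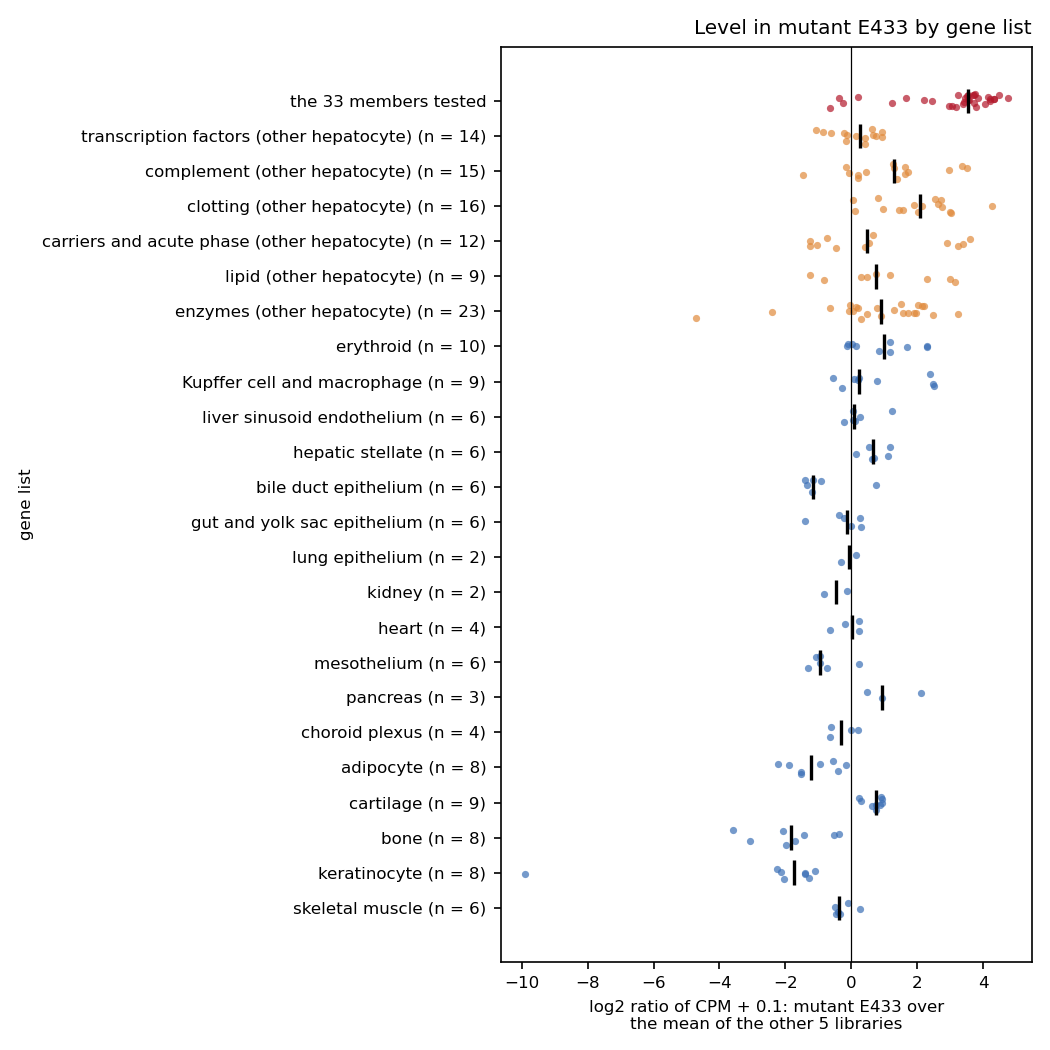
Log2 ratio of the level in mutant E433 to the mean of the other 5 libraries (CPM + 0.1), with 1 point per gene tested and a black bar at the median of each list. The plasma protein genes (red) have a median of 3.52, the other hepatocyte lists (orange) medians from 0.27 to 2.08, and the cell type lists (blue) from -1.83 to 0.997. The other hepatocyte lists hold some genes that passed the count filter only through E433.

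Markers of other cells of the liver were read beside these values. Of 10 erythroid genes, 6 were highest in E433, among them the progenitor factor Klf1 (0.48 to 0.53 CPM in 5 libraries and 2.85 CPM in E433) and the band 3 gene Slc4a1 (67.5 CPM against 46.2 CPM or less). The globins were highest in controls, but among the mutants they too were highest in E433, with Hba-a1 at 4606 CPM against 2263 and 2259 CPM in E423 and E440. The list summed to 18042 to 22499 CPM in the controls and to 7521, 14473 and 7600 CPM in E423, E433 and E440. Of 9 Kupffer cell and macrophage genes, 4 were highest in E433. Clec4f was at 0.70 CPM there against 0.09 CPM or less, Cd5l at 2.48 and Marco at 1.16 CPM. Timd4 was barely highest (0.81 against 0.77 CPM or less). The more abundant Csf1r was lowest in E433 (50.2 CPM against 54.5 to 70.7 CPM). In E433, C1qa (28.0 CPM), Adgre1 (17.4 CPM) and Spic (0.14 CPM) lay inside the control range, and Vsig4 was at 0 in all mutants. That list summed to 109 to 120.4 CPM in controls and 89.5 to 101 CPM in mutants. Sinusoid endothelium (3 of 6 highest in E433; 136 to 152 and 147 to 149 CPM), stellate cell (4 of 6; 69.8 to 110.0 and 62.7 to 89.4 CPM) and bile duct genes (1 of 6; 18.8 to 318 and 108 to 315 CPM) were less clear. The part of liver tissue in the levels of E433 was not tested.

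Other organs that could add these transcripts gave little that moved with E433. No tested gene of gut and yolk sac epithelium was highest in E433 (summed 5.56 to 6.92 CPM in controls and 5.71 to 7.43 CPM in mutants), with Cdx1 at 0 in all libraries. Lung epithelium (up to 1.10 CPM, Sftpa1 at 0), kidney (16.7 to 21.5 CPM, nearly all Nphs1, with Umod at 0), mesothelium (40.0 to 139 and 52.0 to 100.2 CPM) and choroid plexus (6.31 to 6.62 and 4.76 to 7.63 CPM) likewise had no tested gene highest in E433. Heart had 1 of 4 (65.3 to 148 and 96.5 to 137 CPM). Pancreas had 2 of 3, and its sum (2.82 to 82.1 and 1.95 to 109.9 CPM) was nearly all Ins2. Tissues of the body wall differed widely between libraries. Cartilage summed to 1170 to 21640 CPM in controls and 368 to 7695 CPM in mutants, highest in E434 and then E433, bone to 11467 to 16585 and 7974 to 8364 CPM, and skeletal muscle to 10369 to 18099 and 13838 to 25233 CPM.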

How the data were processed

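Counts per gene were deposited by the authors from HISAT2 2.1.0 alignments to GRCm38 with featureCounts 1.6.0 on GENCODE exons, as raw values in which both ends of a pair count, strand is ignored and reads with several alignments are dropped. Expected counts and TPM were likewise deposited, from STAR 2.7.6 and RSEM 1.2.31, and the expected counts were rounded to whole numbers before testing. The authors' own DESeq2 comparisons (log2 fold changes and p-values) were not used, nor were 12 per-sample columns in them. Symbols matched 55141 of 55487 gene IDs. Promoter sequences were those of RefSeq on GRCm38.p6.

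Genes with at least 10 counts summed over 6 libraries entered TMM scaling and the quasi-likelihood test of edgeR 4.0.16 under R 4.3.3, without covariates, with p-values adjusted by the Benjamini-Hochberg method over 26596 genes. Limits were an adjusted p-value of 0.1 and a log2 fold change of 1. DESeq2 1.42.0 and the settings listed in the closing section were alternatives. In simulated data with 200 of 26084 genes changed by a log2 fold of 2, edgeR found 193 of them with 19 false calls. DESeq2 found 192 with 54 false calls. The simulation gave all genes the same dispersion (0.0984), with no library apart as E433 was and no close pairs. These rates therefore do not show how many calls are missed or false in the real data. The 34 genes, the other lists and the alternatives were chosen with earlier results of these data known. All 34 genes were named, with checks, called genes and the most abundant genes of each list; the order of Agt and Ass1 beside other lists, the motif and the exceptions were chosen after values were seen. Intervals and floors cover counting error only, since reads of 1 amplified fragment cannot be told apart. Some genes of the other lists are not reported here.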

Additional observations from a re-analysis of the deposited data

How the results depend on the processing

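The limit on these results is the number of embryos and the weight of E433. For the plasma protein genes, 0 passed both limits as higher or lower by edgeR with DESeq2's size factors, no low-count filter, filterByExpr, a robust empirical Bayes step, the expected counts, an adjusted p-value under 0.01 and the close libraries summed. DESeq2's Wald test called 7 higher and 0 lower, and 8 and 0 with no Cook's limit, an alternative added after the values were seen. Without E433 DESeq2 called 3 higher and 1 lower (also added). Leaving out each library in turn, edgeR called 0 to 2 higher and 0 to 1 lower, and the median log2 fold change ran from 0.11 (without E433) to 2.90; by DESeq2 without E433 it was 0.12. Over all genes, 9 higher and 8 lower became 355 and 122 by DESeq2 (356 and 122 with no Cook's limit, 777 and 454 without E433), 22 and 15 with no filter, 19 and 16 with the robust step, 5 and 5 with the expected counts, and 0 and 0 under an adjusted p-value of 0.01 and with close libraries summed. Leaving out 1 library gave 0 to 734 higher and 0 to 353 lower, the highest without E433.

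Foxc1 (log2 fold change -2.34, edgeR adjusted p = 0.235) and Foxc2 (-1.99, adjusted p = 0.239) passed by DESeq2 (-2.33 and -1.99, with or without Cook's limit), and without E433 by edgeR (-2.99 and -2.26) and DESeq2 (-2.98 and -2.27). Over the libraries left out, they ran from -2.99 to -2.09 and from -2.26 to -1.63.

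The sign of F2 (-0.01) turned with the expected counts (0.0276), with close libraries summed (0.19) and over the libraries left out (-0.91 to 0.31). Leaving out 1 library gave Afp -0.99 to 2.57, Ttr -0.50 to 2.57, Serpina6 -0.20 to 4.09, Apoa1 -0.60 to 2.43, Apob -0.16 to 2.80, Fgg -0.026 to 3.11, Kng1 -0.59 to 2.88, Itih1 -0.91 to 2.95 and Itih2 -0.85 to 2.12, each negative without E433. DESeq2 without E433 gave -0.99, -0.50, -0.20, -0.60, -0.15, -0.026, -0.60 and -0.84 for Afp, Ttr, Serpina6, Apoa1, Apob, Fgg, Kng1 and Itih2. The signs of the other 23 genes tested held in every setting run. No paired analysis was possible because the embryo numbers do not link a mutant to a control.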

Other observations

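Genes outside the lists that stood out in E433 were few. Among the 30 largest ratios of E433 to the next library over 14029 autosomal genes with at least 100 counts in E433, 21 were plasma protein genes and 6 came from the other hepatocyte lists. Both the limit and the ranking were read on E433 itself, so these numbers are a description and not a test. The remaining 3 were Ugt2b34 (2.74 CPM in E433 and 0.10 CPM or less elsewhere), a glucuronosyltransferase of the liver, Gm8893 (4.41 against 0.48 CPM or less) and Pklr (2.85 against 0.35 CPM or less), the pyruvate kinase of liver and red cells. Next among genes of no list came Pzp (7.54 against 1.06 CPM or less), an alpha-2-macroglobulin relative of plasma, and then the lymphocyte genes Il2ra (5.15 against 1.09 CPM or less) and Icos (2.44 against 0.64 CPM or less), and Hemgn, a gene of blood progenitors (7.12 against 1.97 CPM or less). Ins2 (insulin) was at 80.9, 1.08 and 40.8 CPM in the controls (E420, E434 and E435) and at 1.39, 108 and 0.78 CPM in the mutants (E423, E433 and E440), so that 2 controls and 1 mutant were high.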
